A study of Bos taurus with 34 samples.

Results

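The lining of the ampulla on the ovulatory side was compared with that on the opposite side in 5 heifers, which took 10 of the 34 libraries of the series. Libraries were chosen by site and side in their labels, 5 ipsilateral and 5 contralateral to the ovulation, and each ipsilateral library was paired with the contralateral library of the same heifer. All animals were adult nulliparous Holsteins, brought to ovulation with a CIDR-Synch schedule, in which a vaginal insert releases progesterone, and slaughtered on day 2 after ovulation. The sides of an animal therefore shared its synchronisation, its day and its genotype. The labels used here state neither the heifers' ages nor whether they were inseminated. The other libraries came from the uterus (body, mid horn and upper horn) and serve here only for the question of whether the side difference of the ampulla differed from theirs. The heifers carry the numbers 10872, 10882, 11033, 11070 and 11110, and values listed without a heifer's number follow that order.

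The ampulla is the wide upper stretch of the oviduct, in which eggs are fertilised and the embryo begins to divide. Its folded lining, the endosalpinx, is made of ciliated cells, which move the egg and the fluid, and secretory cells, which release glycoproteins, protease inhibitors, complement and nutrients into the lumen. After ovulation the ampulla on the side of the new corpus luteum receives the egg with its cumulus cells and some follicular fluid, while the opposite one does not. The side difference on day 2 thus bears on what the nearness of the ovulated ovary and its contents goes along with, in animals whose circulating hormones reach both oviducts.

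The ampulla libraries held 13971411 to 23380367 counts, and the whole series 11619486 to 30412782. Levels are CPM, a transcript's counts scaled to library size, with TMM factors, so that a single count stood for 0.0390 to 0.0733 CPM, and they compare libraries for a given transcript and not genes with each other. The label held for the epithelium: the summed markers of ciliated cells ranged from 6489 to 7529 CPM in ipsilateral and from 6752 to 8651 CPM in contralateral ampullae, against 643 to 2902 CPM in uterine libraries. The summed stromal markers lay between 1370 and 2133 CPM in ipsilateral and between 984 and 1388 CPM in contralateral ampullae, against 45494 to 98698 CPM in the uterus. The features of DCN, LUM, PDGFRA, PDGFRB, POSTN and COL6A2, which define stroma, had 0 counts in all 10 libraries, and those of PECAM1, CDH5 and VWF, which define endothelium, likewise. Some of these features were also nearly empty in the uterus, where 24 libraries together held 46 counts of PDGFRB, 12 of CDH5 and 2 of PECAM1. Others held more there, with 2313 counts of DCN, 1357 of COL6A2, 1150 of LUM, 332 of PDGFRA, 188 of VWF and 134 of POSTN. Whether such a 0 comes from the tissue or from the counting by transcript cannot be told from the table. In such bulk samples a lower cell number and less RNA per cell cannot be told apart.

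Several libraries stood apart. The contralateral ampulla of heifer 11070 had 15773 features with at least 1 count, the fewest of the 10, while the ipsilateral ampulla of the same heifer had 24241, the most. Principal component 1 of log2 CPM held 39.7% of the variance, and this contralateral library lay at 75.9 on it. Both libraries of heifer 11110 lay at 36.7 (ipsilateral) and 30.3 (contralateral), and the other 7 libraries lay below 0. On principal component 2, with 24.5% of the variance, the contralateral library of heifer 11033 lay at 67.3. The 18S ribosomal RNA transcript took 2.20%, 1.45%, 2.14%, 0.634% and 2.56% of the counts in ipsilateral ampullae, against 2.52%, 5.84%, 2.96%, 1.75% and 11.1% in contralateral ones. It was lower on the ipsilateral side of every heifer, with an exact two-sided sign-flip permutation p of 0.0625, the smallest that 5 pairs can give. The feature LOC112444681 took 1.99%, 0.979%, 1.47%, 0.556% and 2.12% of the counts ipsilaterally. Contralaterally it took 1.49%, 9.02%, 1.84%, 1.39% and 13.5%. It was lower ipsilaterally in 4 of 5 heifers (exact sign-flip p = 0.1875). The part of the 18S transcript and of LOC112444681 in the differences described here was not tested. The same exact permutation test gave p = 0.125 for the number of features and p = 0.75 for the mitochondrial share of counts. The TMM factor was higher ipsilaterally in 5 of 5 heifers (exact p = 0.0625).

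**Figure D1:**
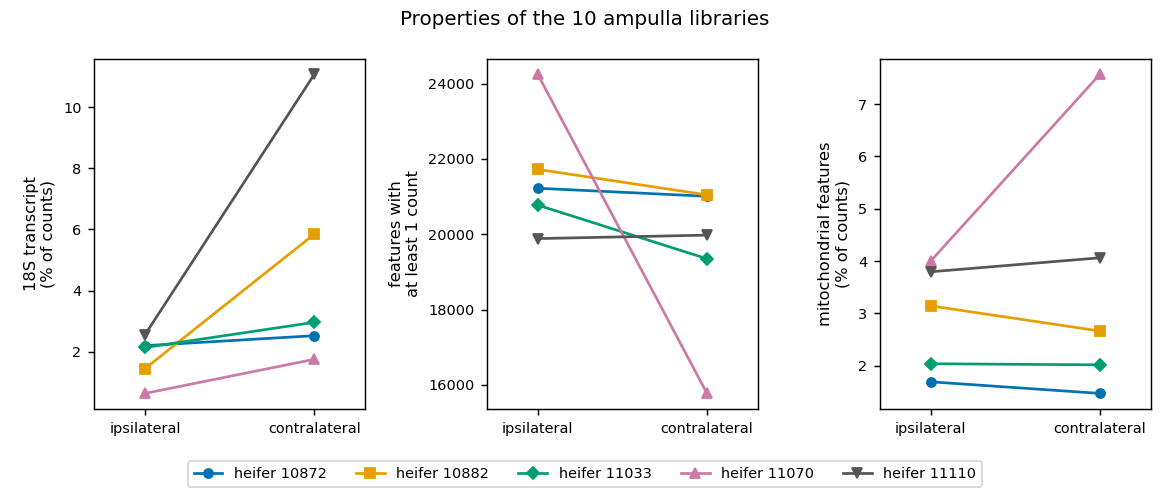
Percent of counts in the 18S ribosomal transcript (left), number of features with at least 1 count (middle) and percent of counts in mitochondrial features (right) in the ipsilateral and contralateral ampulla, with 1 line per heifer. The 18S share was lower ipsilaterally in all 5 heifers, and the largest gap in feature number, 24241 against 15773, was that of heifer 11070.

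No transcript passed the test. Of 11418 tested transcripts, 0 (0%) had an edgeR quasi-likelihood adjusted p under 0.05, and the lowest was 0.36. At an unadjusted p under 0.05 there were 454 transcripts (3.98%), 253 higher (2.22%) and 201 lower (1.76%) on the ipsilateral side, the background for each list's count given here. The lists were chosen with earlier results of these data known, so this background makes no test of them. With DESeq2, whose Wald test gave an adjusted p for 8983 transcripts, 36 (0.401%) passed, 31 higher (0.345%) and 5 lower (0.0557%) ipsilaterally. Of the 36, 31 had the same direction in 5 of 5 heifers, against 3.76% higher and 2.86% lower of all transcripts tested. A paired test on the same 5 pairs favours such transcripts, so this agreement is no further support for the calls. The fit of all 34 libraries, which pools the spread over the uterus as well, called 3 transcripts (0.0174%), TIMP2, SPON2 and IGFBP3, and leaving out the pairs of heifers 11070 and 11110 gave 5 (0.0431%), TIMP2, PDE4D, DIO2, PDE10A and TNXB. The median SE of a log2 fold change was 0.37, with 0.20 and 0.67 at the 10th and 90th percentile of transcripts. Since no transcript was called in the paired fit, those named next are given by their values.

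The heifers did not share the direction of most transcripts. Over all transcripts tested, 429 (3.76%) were higher and 326 (2.86%) were lower ipsilaterally in 5 of 5 heifers, and 24 (0.21%) and 14 (0.123%) had sides that did not overlap at all. The log2 ratios of ipsilateral over contralateral CPM of heifers taken in pairs had a median Pearson r of 0.0229 across 9878 transcripts, over 10 pairs of heifers. It was lowest between heifers 10872 and 10882, at -0.222, and highest between 10882 and 11070, at 0.354, and it was above 0 in 6 of the 10 pairs. These are correlations across transcripts, which are not independent, and each ratio shares its 2 libraries with every other transcript of that heifer. The interquartile range of the log2 ratio was 0.628, 0.580, 1.001, 1.68 and 0.472 in the 5 heifers, so heifer 11070 had the widest differences between its ampullae.

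**Figure D2:**
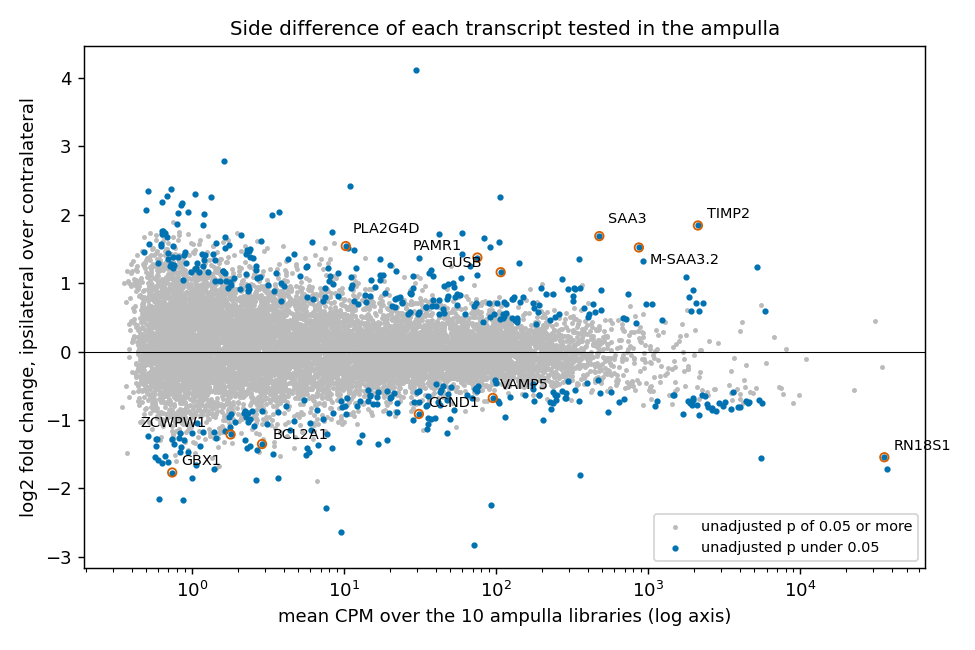
Log2 fold change of each tested transcript, ipsilateral over contralateral ampulla, against its mean CPM over the 10 libraries (log axis), with transcripts of unadjusted p under 0.05 in blue. The circled transcripts are, among those with an official gene symbol and at least 1 CPM on the higher side, the 6 of lowest unadjusted p in each direction that kept the direction in 5 of 5 heifers, from TIMP2 at 1.84 to GBX1 at -1.77, and none passed the adjusted threshold.

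TIMP2, the tissue inhibitor of metalloproteinases that holds matrix-cleaving enzymes in check, had the lowest p of all. It stood at 4735, 4077, 4468, 1594 and 1631 CPM in ipsilateral ampullae, against 813, 1903, 1023, 545 and 439 CPM in contralateral ones. Each heifer had more TIMP2 ipsilaterally, although the contralateral level of heifer 10882 exceeded the ipsilateral ones of heifers 11070 and 11110. The log2 fold change was 1.84 ± 0.25 (SE, n = 5 pairs), with an edgeR adjusted p of 0.36. It ranged from 1.67 to 2.13 over 14 other settings, of which 4 passed the threshold, among them DESeq2 with an adjusted p of 2.10e-08 and the fit of all 34 libraries with 0.0046.

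SPON2, IGFBP3 and SPARC were also higher ipsilaterally in 5 of 5 heifers. SPON2, spondin 2, a secreted matrix protein, was chosen after its values were seen. It had 328, 144, 298, 86.6 and 44.4 CPM ipsilaterally, against 24.6, 63.8, 20.6, 29.98 and 20.1 CPM contralaterally, a log2 fold change of 2.26 ± 0.47 with an edgeR adjusted p of 0.738. IGFBP3, which binds insulin-like growth factors and is known as an oestrogen-responsive gene, had 123, 154, 374, 66.0 and 85.3 CPM ipsilaterally, against 78.0, 32.1, 60.1, 21.5 and 47.0 CPM contralaterally. Its log2 fold change was 1.61 ± 0.31, edgeR adjusted p 0.633, and the highest ipsilateral level was that of heifer 11033. SPARC, a collagen-binding glycoprotein, ranged from 518 to 787 CPM in ipsilateral and from 217 to 486 CPM in contralateral ampullae, with no overlap and a log2 fold change of 0.89 ± 0.24.

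Of 31 matrix remodelling genes, 17 were tested, 1 was higher at an unadjusted p under 0.05, 0 were lower, and the list's median log2 fold change was 0.05, near the 0.03 of all transcripts. That member was TIMP2. The other inhibitors TIMP3 and TIMP4 gave 0.05 ± 0.21 and 0.02 ± 0.19, and the metalloproteinases MMP2, MMP14 and MMP7 gave 0.65 ± 0.58, 0.64 ± 0.32 and -0.52 ± 0.29. Of 18 stromal markers 10 were tested and 2 were higher at an unadjusted p under 0.05 (2.22% of all transcripts), SPARC and the ectonucleotidase NT5E at 0.42 ± 0.18. Their summed level followed the same side in each heifer, at 1956, 1409, 2133, 1520 and 1370 CPM ipsilaterally, against 1388, 1081, 1297, 1014 and 984 CPM contralaterally. SPARC and NT5E made up most of that sum. The collagens COL1A2 and COL3A1 gave 0.41 ± 0.29 and 0.54 ± 0.32, higher in 3 of 5 heifers each, and VIM, the intermediate filament of mesenchymal cells, was lower in 5 of 5 at -0.31 ± 0.29. What part the stromal content has in the values of TIMP2, SPON2 and IGFBP3 was not tested.

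The other transcripts named by low p on the higher side were SAA3, M-SAA3.2, GUSB, PAMR1 and PLA2G4D. SAA3, an acute-phase serum amyloid A, had 1109, 532, 490, 908 and 553 CPM ipsilaterally, against 455, 253, 217, 100 and 155 CPM contralaterally. All ipsilateral levels were above all contralateral ones, and the log2 fold change was 1.69 ± 0.31 (edgeR adjusted p 0.633). Its near copy M-SAA3.2, described first from the mammary gland, ranged from 738 to 1663 CPM in ipsilateral and from 240 to 713 CPM in contralateral ampullae, also without overlap, at 1.52 ± 0.29. These genes resemble each other closely, and how shared reads were counted is not given, so their separate levels are uncertain.

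GUSB, the lysosomal enzyme that splits glucuronides, had 175, 187, 210, 110 and 62.3 CPM in ipsilateral ampullae, against 63.2, 104, 75.8, 44.0 and 38.8 CPM in contralateral ones. Heifer 11110 was low on both sides, and the log2 fold change was 1.16 ± 0.20. PAMR1, a secreted protein with protease-like domains, had 142, 121, 118, 124 and 36.8 CPM ipsilaterally, against 75.3, 55.6, 28.5, 29.0 and 22.6 CPM contralaterally, at 1.37 ± 0.26. PLA2G4D, a cytosolic phospholipase that frees fatty acids from membranes, ranged from 6.39 to 19.9 CPM ipsilaterally and from 1.47 to 9.69 CPM contralaterally, at 1.54 ± 0.29. The edgeR adjusted p was 0.633 for GUSB, PAMR1 and PLA2G4D alike, and DESeq2 called all of them.

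**Figure D3:**
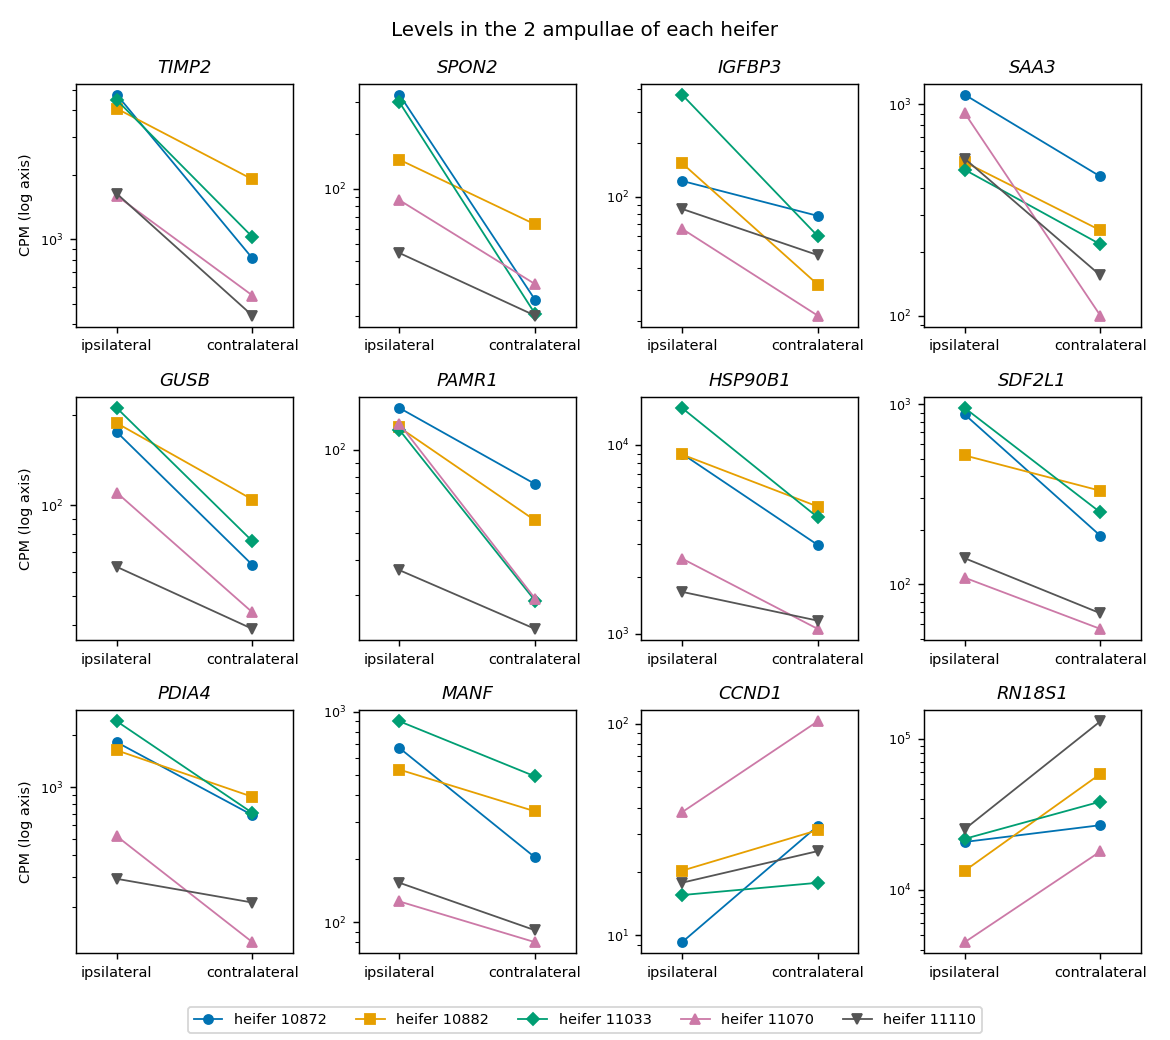
CPM (log axis, 1 scale per panel) of 12 transcripts in the ipsilateral and contralateral ampulla, with 1 line per heifer. The line falls to the right, toward the contralateral side, in all 5 heifers for TIMP2, SPON2, IGFBP3, SAA3, GUSB, PAMR1, HSP90B1, SDF2L1, PDIA4 and MANF, and climbs in all 5 for CCND1 and RN18S1, the 18S transcript.

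Chaperones of the endoplasmic reticulum, which fold proteins bound for secretion and are induced together when folding demand grows, had the highest median of the lists with at least 5 tested members. Of 20 genes, 13 were tested, 10 were higher ipsilaterally at an unadjusted p under 0.05 (2.22% of all transcripts) and 0 were lower. In 5 of 5 heifers, 11 of the 13 were higher, against 3.76% of all transcripts. These shares are no test of the list, which was chosen with earlier results of these data known. Its members also share the same 10 libraries. The median log2 fold change was 0.84, and the heifers' own medians were 1.35, 0.66, 1.21, 0.64 and 0.30. Over the settings tried the list's median ranged from 0.66 to 1.13. No member passed the adjusted threshold of the paired fit.

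HSP90B1, the chaperone GRP94, had 8984, 8900, 15685, 2504 and 1670 CPM in ipsilateral ampullae, against 2957, 4721, 4139, 1063 and 1176 CPM in contralateral ones. Heifers 11070 and 11110 had less on both sides than the other 3, and the log2 fold change was 1.24 ± 0.26 (edgeR adjusted p 0.738). SDF2L1, which works with BiP and its co-chaperones, had 879, 520, 955, 109 and 140 CPM ipsilaterally, against 186, 331, 251, 56.6 and 69.1 CPM contralaterally, at 1.35 ± 0.26 (edgeR adjusted p 0.633). The disulphide isomerases PDIA4, PDIA6 and PDIA3 gave 1.32 ± 0.26, 1.09 ± 0.24 and 0.71 ± 0.21. PDIA4 stood at 1826, 1638, 2420, 517 and 292 CPM ipsilaterally, against 686, 878, 707, 125 and 212 CPM contralaterally, so that in heifer 11110 the sides were closest.

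MANF, a neurotrophic factor that resides in the endoplasmic reticulum and can be secreted under stress, is also a candidate embryokine, a maternal signal that may act on the embryo. It had 672, 530, 900, 125 and 154 CPM in ipsilateral ampullae, against 203, 336, 493, 80.2 and 91.4 CPM in contralateral ones. The log2 fold change was 0.93 ± 0.21, edgeR adjusted p 0.78, and heifers 11070 and 11110 were low on both sides. The co-chaperone DNAJC3 gave 0.92 ± 0.21, CRELD2 0.84 ± 0.27, SEL1L of the degradation pathway 0.71 ± 0.24, calreticulin, CALR, 0.60 ± 0.24 and DNAJB9 0.45 ± 0.26. HERPUD1, induced by the same stress response, and SEC61B, a subunit of the translocation channel, were higher in 3 and 2 of 5 heifers, at -0.12 ± 0.33 and -0.31 ± 0.22. HSPA5, or BiP, was listed at 0 counts in all 10 libraries and had 1 count in the 24 uterine ones, so that its feature gives no measure of the gene. HYOU1 had 0 counts ipsilaterally and 6 contralaterally, and CANX, DNAJB11, XBP1, ATF4 and DDIT3 were matched to no feature. The cytosolic heat shock proteins HSP90AA1, HSPA8 and HSPA1A gave -0.17 ± 0.22, -0.10 ± 0.21 and 0.03 ± 0.26. Of 12 heat shock genes tested, 0 were higher and 1, the mitochondrial chaperonin HSPE1 at -0.68 ± 0.28, was lower at an unadjusted p under 0.05.

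**Figure D4:**
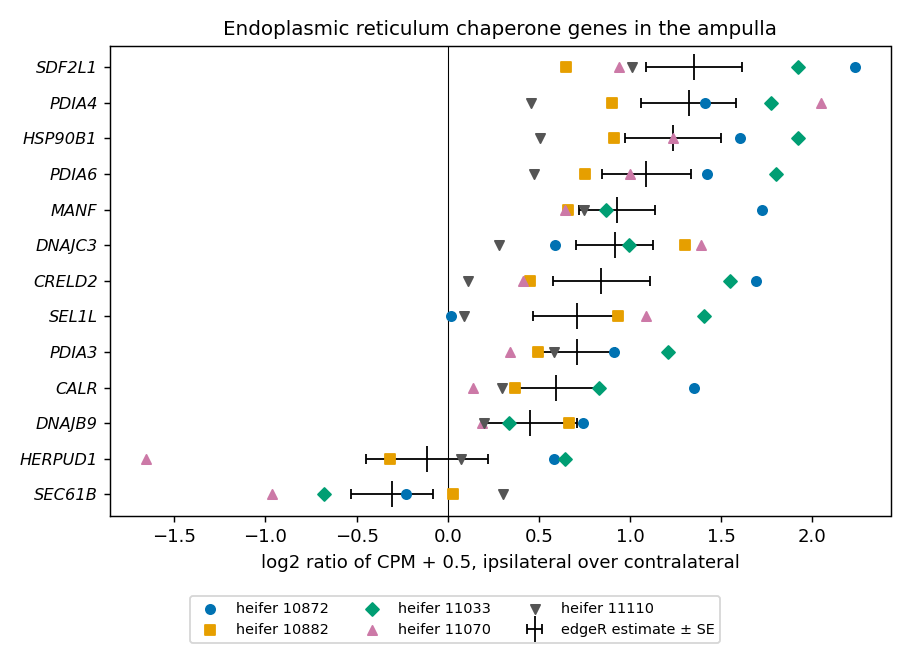
Log2 ratio of CPM + 0.5, ipsilateral over contralateral, of the 13 tested chaperone genes in each heifer (points), with the edgeR estimate ± SE in black. The 5 points of 11 genes lie right of 0, while SEC61B and HERPUD1 lie on both sides of it.

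Further transcripts of the secretory route lay on the same side and were chosen after their values were seen. QSOX1, which forms disulphide bonds in secreted proteins, gave 1.29 ± 0.26, with a mean of 195 ± 66.2 CPM in ipsilateral and 86.8 ± 45.9 CPM in contralateral ampullae (SD, n = 5 each). SEC11C of the signal peptidase gave 0.84 ± 0.19 and TXNDC5, a disulphide isomerase, 0.84 ± 0.23. BHLHA15, or MIST1, a transcription factor of professional secretory cells, gave 1.26 ± 0.32. Each of these 4 was higher in 5 of 5 heifers, and DESeq2 called QSOX1 and BHLHA15.

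Secretory epithelium had 18 listed markers, of which 10 were tested, 4 were higher at an unadjusted p under 0.05 (2.22% of all transcripts) and 0 were lower. Their median log2 fold change was 0.69, or 0.40 without heifer 11070, with heifers' medians of 0.72, 0.04, 0.60, 0.77 and 0.44. KRT23, a keratin, had 75.9, 112, 109, 25.8 and 43.8 CPM ipsilaterally, against 39.8, 57.5, 71.8, 16.7 and 22.4 CPM contralaterally, at 0.82 ± 0.18 (edgeR adjusted p 0.771). FOLR1, the folate receptor, was higher in 5 of 5 heifers at 0.72 ± 0.23 and complement C3 in 4 of 5 at 0.90 ± 0.33. The protease inhibitor gene SLPI gave 2.03 ± 0.64 but reached only 1.29 ± 0.724 CPM ipsilaterally and 0.329 ± 0.257 CPM contralaterally (SD, n = 5 each). OVGP1, the oviduct-specific glycoprotein, gave 0.66 ± 0.42 and was higher in 3 of 5 heifers, and MSLN and WFDC2, mesothelin and a protease-inhibitor-like secreted protein, gave 0.32 ± 0.27 and -0.14 ± 0.28.

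Ciliated epithelium had 22 tested genes of 40, of which 1 was higher and 1 lower at an unadjusted p under 0.05, and the median of -0.09 turned to 0.20 when library totals replaced TMM factors. CCDC40, needed for axoneme assembly, gave 1.48 ± 0.48 at 3.42 ± 2.09 CPM ipsilaterally and 1.15 ± 0.563 CPM contralaterally (SD, n = 5 each). TEKT1, a structural protein of ciliary microtubules, had 405, 377, 399, 335 and 478 CPM ipsilaterally, against 452, 544, 656, 540 and 484 CPM contralaterally. It was lower in 5 of 5 heifers at -0.42 ± 0.19, although the ipsilateral level of heifer 11110 exceeded the contralateral one of heifer 10872, and CFAP53 and RSPH4A were lower in 5 of 5 at -0.39 ± 0.22 and -0.60 ± 0.36. FOXJ1, which switches on ciliary genes, gave 0.24 ± 0.40, and of 9 multiciliogenesis regulators 0 had an unadjusted p under 0.05. Of 10 general epithelium genes 0 had one, with EPCAM and KRT8 at 0.22 ± 0.20 and 0.16 ± 0.20.

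Among 39 candidate embryokines 19 were tested, 2 were higher at an unadjusted p under 0.05 (2.22% of all transcripts), 0 were lower, and the median was 0.08. Beside MANF this was ANG, angiogenin, a secreted ribonuclease that promotes vessel growth, with 18.4, 13.7, 19.4, 20.9 and 10.6 CPM in ipsilateral ampullae, against 4.26, 9.69, 6.77, 12.4 and 4.39 CPM in contralateral ones. Each heifer had more ipsilaterally, the ranges met at 10.6 and 12.4 CPM, and the log2 fold change was 1.23 ± 0.30 (edgeR adjusted p 0.83). RNASE4, of the same ribonuclease family and chosen after its values were seen, gave 0.96 ± 0.21 without overlap of the sides. HDGF, a growth factor, was higher in 5 of 5 heifers by only 0.21 ± 0.17, the embryokines MIF and GAS6 gave -0.26 ± 0.31 and 0.04 ± 0.25, and FGF2 gave -0.08 ± 0.19. GRP, gastrin-releasing peptide, ranged from 1.02 to 20.1 CPM ipsilaterally and from 0.289 to 30.2 CPM contralaterally and was higher in 4 of 5 heifers, at 1.59 ± 0.76. Of 26 other growth factors and morphogens 0 had an unadjusted p under 0.05, and FGF18 came nearest, at 0.82 ± 0.37 and higher in 5 of 5 heifers.

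Among genes tied to the binding and storage of sperm, 12 of 24 were tested and 1 was higher at an unadjusted p under 0.05 (2.22% of all transcripts). ANXA4, an annexin that binds bovine sperm to the oviduct lining, had 1022, 1809, 1954, 1064 and 737 CPM ipsilaterally, against 586, 1077, 1208, 580 and 590 CPM contralaterally, at 0.69 ± 0.19 (edgeR adjusted p 0.83). Both sides of heifers 10882 and 11033 were above those of the other heifers. PLAT, tissue plasminogen activator, was higher in 5 of 5 heifers at 0.45 ± 0.20, and ANXA1 and CD9 gave -0.21 ± 0.21 and 0.11 ± 0.19.

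Transport genes held a few transcripts with higher ipsilateral levels. SLC36A2, a carrier of small amino acids, had 61.6, 69.9, 66.6, 30.9 and 25.9 CPM ipsilaterally, against 36.2, 37.6, 13.5, 8.72 and 21.8 CPM contralaterally, at 1.20 ± 0.31. It was 1 of 3 among 17 tested nutrient transporters that were higher at an unadjusted p under 0.05 (2.22% of all transcripts). The others were the glucose carriers SLC2A4 at 1.62 ± 0.49 and SLC5A1 at 0.84 ± 0.35, higher in 4 of 5 heifers each. The main glucose carrier SLC2A1 gave 0.03 ± 0.17. Among ion transport genes the sodium channel subunit SCNN1B gave 2.37 ± 0.85, with 0 counts in 1 ipsilateral and 2 contralateral libraries. Of the retinoid genes ALDH1A1, which makes retinoic acid, had 815, 823, 948, 681 and 663 CPM ipsilaterally, against 579, 563, 856, 401 and 474 CPM contralaterally, at 0.49 ± 0.18, and the retinol receptor STRA6 gave 1.54 ± 0.64, with at most 1.45 CPM in a library.

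Hormone signalling gave mixed values. Of 11 tested oestrogen-responsive genes 3 were higher and 1 was lower at an unadjusted p under 0.05, against 2.22% and 1.76% of all transcripts. Their median was 0.52, or 0.26 without heifer 11070. Beside IGFBP3 and C3 the higher ones included GREB1, at 1.41 ± 0.62 and a mean of 1.75 ± 1.23 CPM ipsilaterally and 0.702 ± 0.520 CPM contralaterally (SD, n = 5 each). CCND1, cyclin D1, which drives cells from G1 into S phase, lay the other way, at 9.27, 20.2, 15.5, 38.2 and 17.7 CPM ipsilaterally, against 32.8, 31.4, 17.7, 103 and 24.98 CPM contralaterally. Heifer 10872 had the largest ratio and heifer 11033 the smallest, and the log2 fold change was -0.91 ± 0.28 (edgeR adjusted p 0.83). Among 10 progesterone-responsive genes 0 had an unadjusted p under 0.05, and the glucocorticoid- and progesterone-induced TSC22D3 came nearest at 1.27 ± 0.58. The progesterone receptor, PGR, and its membrane partner PGRMC1 gave 0.52 ± 0.41 and 0.28 ± 0.20. In the prostaglandin pathway PTGFR, the receptor of prostaglandin F2α, gave 1.55 ± 0.67, with 1.09 ± 0.788 CPM ipsilaterally and 0.404 ± 0.445 CPM contralaterally (SD, n = 5 each).

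Leukocyte and chemokine transcripts had medians of -0.41 and -0.42, each with 0 higher and 1 lower member at an unadjusted p under 0.05, of 9 and 12 tested, against 1.76% lower over all transcripts. Without heifer 11070 the medians were -0.18 and -0.27, and with library totals both were -0.13. LYZ, lysozyme, had 9.03, 6.80, 8.80, 6.24 and 17.6 CPM ipsilaterally, against 18.3, 7.64, 21.9, 14.4 and 16.1 CPM contralaterally, at -0.72 ± 0.30. CCL5, which attracts T cells and monocytes, was lower in 5 of 5 heifers at -0.80 ± 0.32, and the T cell gene CD3D was lower in 5 of 5 at -0.69 ± 0.31. The features of PTPRC, CD68 and CD163 were at 0 counts, but had only 3, 2 and 31 counts in the 24 uterine libraries, and the summed leukocyte markers were 53.5 to 99.8 CPM ipsilaterally and 68.2 to 132.5 CPM contralaterally. Interferon-stimulated genes had 17 tested members with 0 at an unadjusted p under 0.05. Of 13 complement and antimicrobial genes 3 were higher and 1 was lower, against 2.22% and 1.76% of all transcripts. Factor B, CFB, gave 1.15 ± 0.39 next to C3. Some members are counted in more than 1 list. C3 was also among the higher secretory and oestrogen-responsive genes, SLPI among the higher secretory ones, and LYZ was the lower member here and of the leukocyte list.

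**Figure D5:**
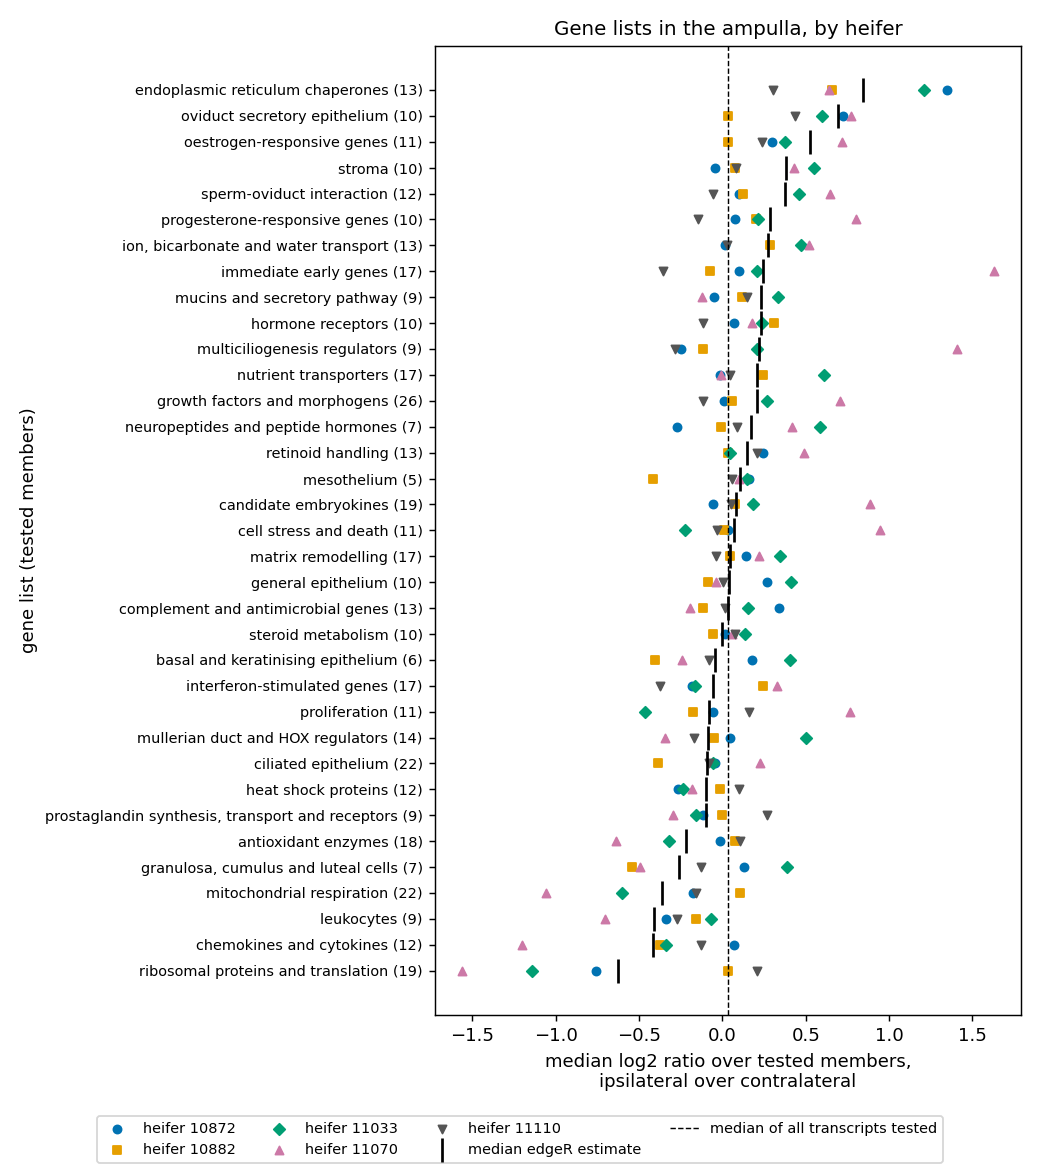
Median log2 ratio over the tested members of each gene list with at least 5 of them, ipsilateral over contralateral, in each heifer (points), and the median of the edgeR estimates (black bars). The chaperone list has the highest median, 0.84, with 5 of 5 heifers above 0, and the ribosomal list the lowest, -0.63, with heifers from -1.56 to 0.21.

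Ribosomal protein genes had the lowest median of any list, -0.63, and 18 of 19 estimates were below 0. Of these 7 were lower at an unadjusted p under 0.05 (1.76% of all transcripts), such as RPS19 at -0.74 ± 0.30, with 2512, 2338, 2744, 1209 and 3155 CPM ipsilaterally, against 4366, 2516, 5259, 4541 and 3145 CPM contralaterally. None of the 19 was lower in 5 of 5 heifers. The heifers' medians were -0.76, 0.04, -1.14, -1.56 and 0.21, so that heifers 10872, 11033 and 11070 were below 0 and the others slightly above. Without heifer 11070 the ribosomal list's median was -0.44, and with library totals in place of TMM factors it was -0.35. Transcripts of mitochondrial respiration had a median of -0.36, or -0.23 without heifer 11070 and -0.09 with library totals. Their heifers' medians ranged from -1.06 in heifer 11070 to 0.11 in heifer 10882. The features counted in the contralateral and ipsilateral library of heifer 11070 differed most in number, as given above, and the part of library complexity in these lists was not tested.

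Among transcripts lower on the ipsilateral side, those next described had an official symbol, the lowest p and one direction in 5 of 5 heifers. The 18S transcript RN18S1 itself had a log2 fold change of -1.55 ± 0.37 (edgeR adjusted p 0.83). Leaving it out before scaling moved the median of all transcripts by 0.000495 on the log2 scale. LOC112444681, the other abundant feature described above, was not left out. BCL2A1, which protects cells from apoptosis, had 1.12, 2.08, 0.924, 1.29 and 3.12 CPM ipsilaterally, against 3.72, 3.65, 5.84, 3.96 and 3.15 CPM contralaterally, at -1.35 ± 0.43. The sides did not overlap, but the levels of heifer 11110 were closer than the CPM of a single count. Its direction in that heifer, and the lack of overlap, are therefore not resolved. VAMP5, a vesicle protein, ranged from 44.6 to 96.9 CPM ipsilaterally and from 94.6 to 135 CPM contralaterally, at -0.68 ± 0.22. ZCWPW1, a reader of histone marks known from mouse meiosis, gave -1.21 ± 0.38, and the homeobox gene GBX1 gave -1.77 ± 0.57 at 0.312 ± 0.177 CPM ipsilaterally and 1.17 ± 0.931 CPM contralaterally (SD, n = 5 each). Of 11 proliferation genes 2 were lower at an unadjusted p under 0.05 (1.76% of all transcripts) and 0 were higher. The 2 were the survivin gene BIRC5 at -0.58 ± 0.23 and the cyclin CCNB2 at -0.90 ± 0.36.

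Immediate early genes, which respond to stimuli within minutes, differed in a single animal. Their heifers' medians were 0.10, -0.08, 0.21, 1.63 and -0.35, and 0 of 17 had an unadjusted p under 0.05. In heifer 11070 JUN stood at 3409 CPM in the ipsilateral and 804 CPM in the contralateral ampulla, whereas the other heifers ranged from 376 to 723 CPM ipsilaterally and from 301 to 913 CPM contralaterally. FOS, chosen after its values were seen, had 705 CPM in the ipsilateral and 53.4 CPM in the contralateral ampulla of that heifer, and 8.66 to 22.7 CPM ipsilaterally and 4.92 to 46.7 CPM contralaterally in the others. EGR1 was likewise at 334 CPM in that ipsilateral library and at 26.8 CPM in its contralateral partner. The growth factor VEGFA, below the filter, had 13.95 CPM in the ipsilateral ampulla of heifer 11070 and 0 counts in its contralateral one, and at most 0.609 CPM in any other library.

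Whether these differences were particular to the ampulla was asked by testing its side difference against that of the uterine horn. The upper horn had 4 ipsilateral and 5 contralateral libraries, since heifer 11110 lacked an ipsilateral one, so its sides were not paired in every heifer. Of 17241 transcripts in the fit of all 34 libraries, 0 (0%) had a side difference that differed between the ampulla and the upper horn at an edgeR adjusted p under 0.05, with 724 (4.2%) at an unadjusted p under 0.05. Against the mid horn 0 (0%) passed and 765 (4.44%) had an unadjusted p under 0.05. For TIMP2 the side difference exceeded that of the upper horn by 1.90 ± 0.43 and that of the mid horn by 1.92 ± 0.41 on the log2 scale, with edgeR adjusted p of 0.604 and 0.401. TIMP2 itself differed by -0.02 ± 0.31 between the sides of the upper horn and by -0.05 ± 0.29 between those of the mid horn. IGFBP3 exceeded the upper horn by 1.07 ± 0.46 and the mid horn by 1.70 ± 0.45, with edgeR adjusted p of 1 and 0.539. It was itself higher on the ipsilateral side of the upper horn, by 0.72 ± 0.33, and differed by 0.08 ± 0.31 between the sides of the mid horn. The side differences of other named transcripts in the horns were mixed, as in these examples. SPARC gave 0.35 ± 0.25 in the upper and 0.35 ± 0.24 in the mid horn, and RN18S1 gave -1.09 ± 1.07 and -0.69 ± 0.96. SAA3 gave 1.11 ± 1.05 and -1.90 ± 1.07, and SDF2L1 gave -0.40 ± 0.64 and -1.54 ± 0.63. Without the contralateral mid horn library of heifer 10882 and the contralateral upper horn library of heifer 11033, which were doubted after the data were seen, TIMP2 exceeded the upper horn by 1.70 ± 0.39 and the mid horn by 1.59 ± 0.38, with edgeR adjusted p of 0.664 and 0.654.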

How the data were processed

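RNA was extracted with a Qiagen RNeasy microkit after bead homogenisation, and the library kit was NEBNext Ultra II Directional, per the labels' protocols. What the authors deposited was a table of whole-number read counts per feature, mostly RefSeq transcripts, for 34 libraries. Tools listed, per the submitters' processing notes, were HTSeq, SAMtools, STAR 2.7.9a and cutadapt. The genome build, annotation, strand setting and handling of reads shared by features were not given in the sources used here. Hence values of near-identical or overlapping genes are uncertain.

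Of 38568 features, 26362 matched a gene in a RefSeq gene table of the assembly ARS-UCD2.0, which was used for names only. These held 95.3% of the counts. The ampulla was fitted with edgeR 4.0.16 in R 4.3.3 (filterByExpr, TMM scaling, robust quasi-likelihood F test) on 10 libraries, with heifer as a block and side as the term. The block comes from the labels, since libraries of a heifer are from the same animal. The deviations of its libraries correlated at r = 0.293, 0.370, 0.487, -0.0607 and 0.502. The highest r with a library of another heifer was 0.239, 0.265, 0.180, 0.233 and 0.505. It exceeded the heifer's own r in heifers 11070 and 11110 and lay below it in heifers 10872, 10882 and 11033. P-values were adjusted after Benjamini-Hochberg over all transcripts, at a threshold of 0.05. The horns were compared in a fit of all 34 libraries with group and heifer as terms. The 20 pairs of ampulla libraries from the same side differed by more than counting noise (chi-square per transcript at least 44.8, over transcripts of at least 20 counts), so none was a duplicate. Log2 ratios within a heifer used CPM + 0.5. Scripts were tested on simulated data.

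Members and gene lists were chosen with earlier results of these data known. Transcripts with an official symbol were named by rule: up to 6 per direction of lowest unadjusted p, with the same direction in 5 of 5 heifers and at least 1 CPM on the higher side, so that this agreement is no finding for them, and the member of lowest unadjusted p of each of 39 lists. Other members are given as list examples. Alternatives were DESeq2 1.42.0, its size factors, no filter, no heifer block, all libraries in one fit, counts summed by gene, no 18S transcript, library totals and leaving out heifers. Printed means carry the SD over heifers and fold changes the SE of the fit. 1 member of the ion transport list, and that list's count, are not reported here.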

Additional observations from a re-analysis of the deposited data

Results flagged for a closer look

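Dixon's test, applied to 110 groups of 5 ampulla libraries, marked 5 values in which a single library lay far from the other 4, about as many as the 1 in 20 that chance marks. PAMR1 was at 36.8 CPM in the ipsilateral ampulla of heifer 11110, with the nearest other ipsilateral library at 118 CPM. HOXA7, a regional homeobox gene, was at 2.39 CPM in the same library, with the nearest at 0.792 CPM. CCNO, a regulator of multiciliogenesis, was at 77.8 CPM in the contralateral ampulla of heifer 11110, with the nearest other contralateral library at 162 CPM. UPK3B, a mesothelial marker, was at 0.578 CPM in the contralateral ampulla of heifer 11033, with the nearest at 2.90 CPM. The TMM factor was 1.42 in the ipsilateral ampulla of heifer 11070, with the nearest at 1.09.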

How the results depend on the processing

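The count of called transcripts in the ampulla was 0. It stayed 0 with DESeq2's size factors, no replicate block, the 18S transcript left out, counts summed by gene and library totals. It also stayed 0 with each heifer left out (0 to 0). A further 2-fold limit was applied to these 0 calls and could only leave 0. The count was 36 with DESeq2's Wald test and 50 without the filter on low counts. It was 3 in the fit of all 34 libraries with the replicate block and 5 without the pairs of heifers 11070 and 11110. The 50 transcripts called without the filter were all among those that pass it, and DESeq2 called 28 of them. At an unadjusted p under 0.05 the paired fit had 454 transcripts, the fit without the block 422, and the fits without 1 heifer from 185 (without heifer 11033) to 736 (without heifer 11110). The side difference against the upper and mid horn, 0 calls each, gave 40 and 156 without the filter and 0 under every other setting tried, including no replicate block. The cause of these shifts was not tested. Of 50 named transcripts none changed direction, and 13 passed the threshold under at least 1 setting. They were picked by lowest p from these same data, so a kept direction is no test of them. Library totals in place of TMM factors, added after the TMM factors were seen, moved the median of all transcripts by 0.28 on the log2 scale and changed the sign of 11 of 39 list medians. Without heifer 11070 the medians of secretory epithelium and oestrogen-responsive genes were 0.40 and 0.26, and the median of multiciliogenesis regulators was -0.22 in place of 0.22. Without heifer 11033 the stromal median was 0.11 in place of 0.38. A single count stood for 0.0390 to 0.0733 CPM, which limits the transcripts near that level.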

Other observations

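PDE4D, PDE10A and DIO2, 3 transcripts chosen after their values were seen, were highest in the ipsilateral ampullae of heifers 10882 and 11033. PDE4D, which degrades cyclic AMP, had 1.26, 5.39, 5.50, 1.91 and 0.208 CPM in ipsilateral ampullae, against 0.0454, 0.332, 1.21, 0.147 and 0.281 CPM in contralateral ones, a log2 fold change of 2.79 ± 0.69. PDE10A had 11.3, 43.3, 24.2, 10.02 and 1.82 CPM ipsilaterally, against 4.54, 12.01, 3.76, 4.18 and 1.63 CPM contralaterally, at 1.49 ± 0.37. DIO2, which activates thyroid hormone, had 7.91, 71.4, 82.4, 3.35 and 0.571 CPM ipsilaterally, against 2.72, 6.97, 27.9, 2.05 and 1.97 CPM contralaterally, at 1.25 ± 0.59. Heifer 11110 went the other way for PDE4D and DIO2, which were lower in its ipsilateral ampulla, and had close levels of PDE10A.

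RMRP and MIR2887-1 were likewise chosen after their values were seen. RMRP, the RNA of a ribonuclease complex, had 4.26, 0.619, 1.10, 0.507 and 5.19 CPM in ipsilateral ampullae, against 1.09, 9.69, 4.28, 4.91 and 44.2 CPM in contralateral ones. MIR2887-1 had 117, 91.8, 174, 24.0 and 148 CPM ipsilaterally, against 147, 730, 169, 99.0 and 1872 CPM contralaterally. Both were highest in the contralateral libraries of heifers 10882 and 11110, which also had the largest 18S shares.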
